A study of Mus musculus with 12 samples.

Results

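The nuclear genes for the proteins of the mitochondrial ribosome are described here in HT22 cells, a mouse hippocampal line, treated with mesaconitine (MA), a diterpenoid alkaloid of Aconitum plants. The genes were chosen by name alone, as those whose symbol is Mrpl or Mrps, a number and at most 1 further letter. The rule found 78 of the 25239 genes of the expression table and 5 of the 2643 m6A peaks, and all 78 genes had an adjusted p. Of these 78, 51 encode proteins of the large subunit and 26 proteins of the small subunit, with Mrps30 and Mrps18a counted in the large subunit, where structures place them. The remaining gene, Mrps36, keeps its name although its protein belongs to the alpha-ketoglutarate dehydrogenase complex.

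The series held 12 libraries of wild-type HT22 cells, in 4 groups of 3: input and anti-m6A immunoprecipitated (IP) libraries of untreated control cells, and the same pair of library kinds from cells given MA at 800 μM over 72 h. Each group is replicates of a single line, and no label says whether the 3 were separate cultures, so a p-value measures only the spread between these libraries. Neither table holds the value of a single library: for each gene there is a log2 fold change, its standard error (SE), p-values and a base mean, which averages the scaled counts of the libraries compared, and for each peak the reads summed over each group. Library depths were not analysed here. Of 8 markers of neurons, 5 were listed at a base mean of 0, among them Map2 and Snap25, and Tubb3 was at 473. A listed 0 may not mean an absent mRNA, since Gtpbp10, a widely expressed assembly factor of the mitochondrial ribosome, was also listed at 0. The fibroblast collagens Col1a1 and Col3a1 had base means of 100160 and 134804, and 4 of 5 fibroblast markers passed the test as lower after MA. Both neuron markers with an adjusted p, Tubb3 (log2 change -0.40) and Syt1 (base mean 6.22), and the astrocyte marker Slc1a3 (log2 change -0.48) also passed as lower. The part of this cell state in the results was not tested.

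The numerator of the expression fold change is not named in the deposited table. Its sign was reversed here, so that a positive log2 change means higher after MA. Set against the IP reads of 2470 peaks (log2 of MA over control), the reversed change had a Spearman's rho of 0.28, and among 166 peaks whose gene had a p under 0.0001 rho was 0.59. For the input reads rho was 0.01 and 0.03, so these values do not settle which libraries were compared for expression, and a change given below may include IP libraries. The direction of every change below rests on this reading.

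Mitochondrial ribosomes translate the few mRNAs of the mitochondrial genome, which encode core subunits of the respiratory chain. Their RNAs come from mitochondrial DNA, whereas every protein is encoded in the nucleus, made in the cytosol and imported. Many of these proteins have a bacterial counterpart, and others arose in the mitochondrial lineage and largely clothe the surface of the particle.

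The stretches before the transcription start of 4 of the 5 genes that passed the expression test are printed below, because these genes moved the same way, followed by 4 in which a motif was found. They are shown 5′ to 3′ on the coding strand of the gene, from the RefSeq promoters of GRCm38.p6, and are limited to at most 120 bases that no annotated exon covers. Capitals mark a match to 1 of 6 motifs searched on both strands: CGCATGCG (named for NRF1), CCGGAAGT (ETS factors such as GABP), AAGATGGC (YY1), GGGCGG (SP1), CACGTG (E-box) and CCAAT (NF-Y). These motifs do not overlap each other in the stretches shown. They lie at chr11:97315596-97315715 (plus strand) for Mrpl45, chr11:120484517-120484612 (plus) for Mrpl12, chr1:37890412-37890476 (plus) for Mrpl30, chr14:54426789-54426908 (plus) for Mrpl52, chr11:58171544-58171660 (plus) for Mrpl22, chr3:94443216-94443317 (plus) for Mrpl9, chr9:98601680-98601799 (minus) for Mrps22 and chr13:99344706-99344785 (plus) for Mrps27.
Mrpl45: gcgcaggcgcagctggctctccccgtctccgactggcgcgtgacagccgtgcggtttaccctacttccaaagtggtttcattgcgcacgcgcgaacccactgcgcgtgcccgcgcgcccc
Mrpl12: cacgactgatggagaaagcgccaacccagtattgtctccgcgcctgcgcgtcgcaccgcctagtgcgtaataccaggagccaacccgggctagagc
Mrpl30: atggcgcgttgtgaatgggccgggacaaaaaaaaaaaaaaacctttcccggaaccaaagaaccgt
Mrpl52: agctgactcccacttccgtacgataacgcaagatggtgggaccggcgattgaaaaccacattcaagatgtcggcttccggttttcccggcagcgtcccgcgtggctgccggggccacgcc
Mrpl22: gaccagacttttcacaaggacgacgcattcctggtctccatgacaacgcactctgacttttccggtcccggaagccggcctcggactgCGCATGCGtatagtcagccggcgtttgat
Mrpl9: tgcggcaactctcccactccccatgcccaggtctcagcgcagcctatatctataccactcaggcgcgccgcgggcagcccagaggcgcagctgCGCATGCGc
Mrps22: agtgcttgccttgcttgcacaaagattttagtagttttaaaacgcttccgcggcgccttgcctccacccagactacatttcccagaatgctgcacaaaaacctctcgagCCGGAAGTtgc
Mrps27: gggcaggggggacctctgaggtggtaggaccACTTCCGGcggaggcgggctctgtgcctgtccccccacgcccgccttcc

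None of the 6 motifs stands in the 4 stretches of the genes that passed the test. The same holds for the stretches of some genes that did not pass, such as Mrpl10, Mrpl24 and Mrps2. The other 4 printed were picked because they hold a motif, so the printed stretches give no comparison between genes that passed and genes that did not. Mrpl22 and Mrpl9 each hold the NRF1 motif once, Mrps22 holds the ETS motif, and Mrps27 holds it on the opposite strand. A match is a description of letters and does not show binding.

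After MA treatment, 5 of the 78 genes rose and 0 fell in the deposited DESeq2 comparison at an adjusted p under 0.05. The 5 were Mrpl45, Mrpl12, Mrpl30, Mrpl19 and Mrpl52, all of the large subunit. Over all genes with an adjusted p, 7.07% of 13427 were called higher and 8.27% lower, so the share of the members called higher, 6.41%, was near the background. At an unadjusted p under 0.05 the counts were 15 higher and 1 lower, beside 9.98% and 10.9% of all 16167 tested genes. Among the members the median log2 change was 0.08, a 1.06-fold difference, beside -0.01 over all tested genes, and 59 of 78 had a positive estimate beside 48.2% of all genes. The median SE of a single member was 0.11.

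The size of the changes was bounded closely. All 78 members had 95% intervals, taken from the deposited SE, inside a 2-fold change in either direction. For 73 of them the interval lay inside 1.5-fold, and for 19 inside 1.2-fold. The estimates ran from -0.23 for Mrpl24 to 0.37 for Mrpl53, and 8 of them, all positive, were beyond 1.2-fold. When the Wald statistic (the log2 change divided by its SE) was ranked among all tested genes, 15 members were past the 90th percentile and 1 stood under the 10th, while 38 lay between the 25th and the 75th. Among the 8112 tested genes with a base mean within the range of the members (138 to 4649), the median log2 change was 0.01 and 52.5% of the estimates were positive.

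**Figure D1:**
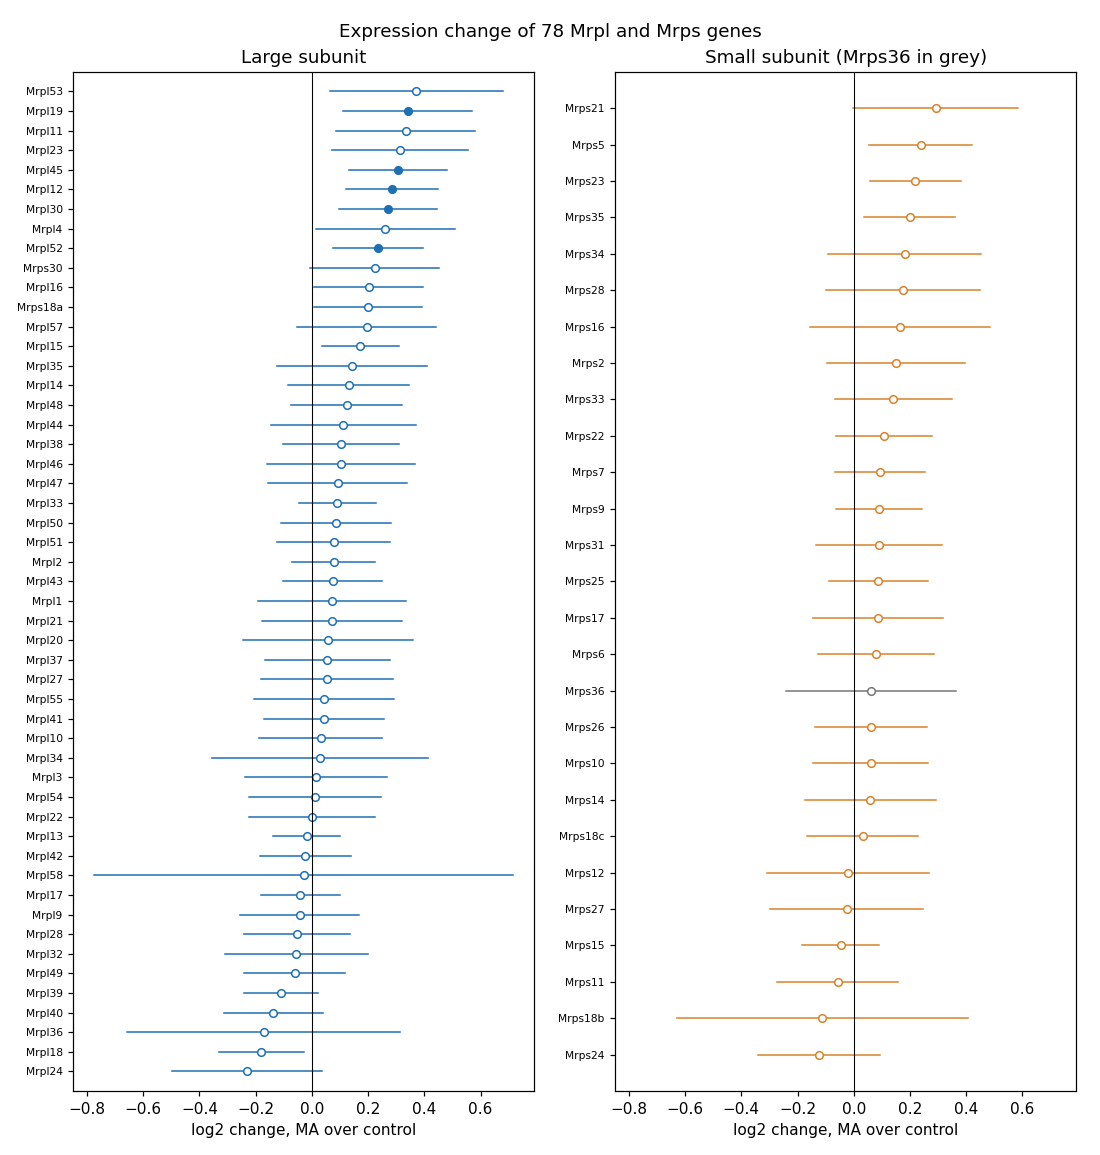
Log2 change of each Mrpl and Mrps gene, MA over control (x axis), with its 95% interval from the deposited SE, for the 51 genes of the large subunit (left, blue) and the 26 of the small subunit with Mrps36 (right, orange and grey). Filled points are the 5 genes with an adjusted p under 0.05, all in the left panel, and most intervals cross 0.

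Mrpl45, which ties the ribosome to the inner membrane beside the exit of the peptide tunnel, had a log2 change of 0.30 (SE 0.09, 1.24-fold, DESeq2 adjusted p = 0.0067). Mrpl12, the protein of the flexible stalk that recruits translation factors, had one of 0.28 (SE 0.08, adjusted p = 0.0073 in DESeq2). For Mrpl30, counterpart of bacterial L30, it was 0.27 (SE 0.09, DESeq2 adjusted p = 0.019). Mrpl19, counterpart of a bacterial protein at the interface of the subunits, showed the largest estimate of the 5, 0.34 (SE 0.12, DESeq2 adjusted p = 0.028). Mrpl52, which has no bacterial counterpart, had 0.24 (SE 0.08, DESeq2 adjusted p = 0.029). The 5 intervals overlap, so their order by size is not resolved.

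The next 5 by p had positive estimates and did not pass. They were Mrps23, a protein of the small subunit without bacterial counterpart (0.22, SE 0.08), Mrpl11 of the stalk base (0.33, SE 0.13), Mrpl23 at the tunnel exit (0.31, SE 0.12), Mrps5 of the small subunit (0.24, SE 0.09) and Mrpl15 (0.17, SE 0.07). Their DESeq2 adjusted p ran from 0.053 to 0.074. Mrps23 lies at the threshold, since centring all changes on the median gene gave it an adjusted p of 0.045. Stretches of 50 bases found in transcripts of other genes made up 66.7% of Mrpl23 and 12.4% of Mrps5, so reads of these genes may be split or shared.

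The 10 members with the smallest p on the other side were Mrpl18, Mrpl24, Mrpl39, Mrpl40, Mrps24, Mrpl36, Mrps15, Mrpl49, Mrpl17 and Mrpl28. Of them, 1 had an unadjusted p under 0.05. That gene was Mrpl18, counterpart of the bacterial protein that binds 5S rRNA, with a log2 change of -0.18 (SE 0.08, DESeq2 adjusted p = 0.11). The estimate of Mrpl24, a tunnel exit protein, was -0.23 (SE 0.14), and the others lay between -0.17 for Mrpl36 and -0.04 for Mrpl17. Mrpl36 had the lowest base mean of all members, 138, and a wide SE of 0.25.

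By subunit, 5 of 51 genes of the large subunit and 0 of 26 of the small subunit passed in DESeq2, with median log2 changes of 0.07 and 0.09. At an unadjusted p under 0.05 the counts were 12 higher and 1 lower in the large subunit, and 3 higher and 0 lower in the small one. Over all genes with an adjusted p, 7.07% passed as higher, beside 9.80% of the large subunit and 0% of the small one. At an unadjusted p under 0.05, 9.98% of all tested genes were higher and 10.9% lower. Neither the difference in medians nor that in counts was tested. The 48 genes with a bacterial counterpart had a median of 0.07 with 3 higher, and the 29 without one a median of 0.09 with 2 higher. Mrps30 (0.22, SE 0.12) and Mrps18a (0.20, SE 0.10) did not pass, nor did Mrps36 (0.06, SE 0.15), for which 36.2% of the stretches are shared.

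Of the 3 sites of the large subunit examined, the stalk with its 4 genes had the highest median, 0.31. The estimates were 0.28 for Mrpl12, 0.33 for Mrpl11, 0.37 for Mrpl53 and 0.03 for Mrpl10, the protein that carries Mrpl12, and of these Mrpl12 passed. Every stretch of Mrpl53 also occurs in the transcript of Gm42688, so its value cannot be assigned to 1 gene. The 8 genes of the central protuberance had a median of 0.08, with estimates from -0.18 (Mrpl18) to 0.24 (Mrpl52). The 7 genes around the tunnel exit had a median of 0.09 and spanned -0.23 (Mrpl24) to 0.31 (Mrpl23), with Mrpl45 at 0.30. Estimates of either sign stood in the central protuberance and at the tunnel exit, and the 4 of the stalk were positive. Of all 78 members 75.6% had positive estimates, so 4 positive ones do not set the stalk apart. The difference between sites was not tested.

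The mRNA levels of the members, as base mean per kilobase of the longest coding transcript, ran over a 48.6-fold range, from 144 for Mrpl47 to 6981 for Mrpl42, with a median of 645. Mrpl42 (6981), Mrpl52 (6473) and Mrpl33 (3909) were highest. Stretches shared with transcripts of other genes made up 18.8% of Mrpl42, 30.3% of Mrpl33 and 0% of Mrpl52. Reads of Mrpl42 and Mrpl33 may thus be split or shared. Lowest were Mrpl48 (180), Mrpl36 (150) and Mrpl47 (144). This order depends on the transcript chosen. With the median length of a gene's coding transcripts, Mrpl48 stood at 890, Mrpl17 at 3467 in place of 353, and Mrpl13 (4149) came before Mrpl33. Mrpl42 and Mrpl52 were the highest and Mrpl36 and Mrpl47 among the 3 lowest by either length. Whether neighbours in this order differ could not be tested without single libraries. Of the highest 3, Mrpl52 rose, whereas Mrpl42 (-0.02, SE 0.08) and Mrpl33 (0.09, SE 0.07) did not pass. Across the 78 genes the level per kilobase and the log2 change had a Spearman's rho of -0.13, a description over genes that share the same libraries. The SE was smaller at higher base means (rho of -0.84), but not for Mrpl58, a peptidyl-tRNA hydrolase, whose SE of 0.38 was the highest of all members at a base mean of 1587.

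**Figure D2:**
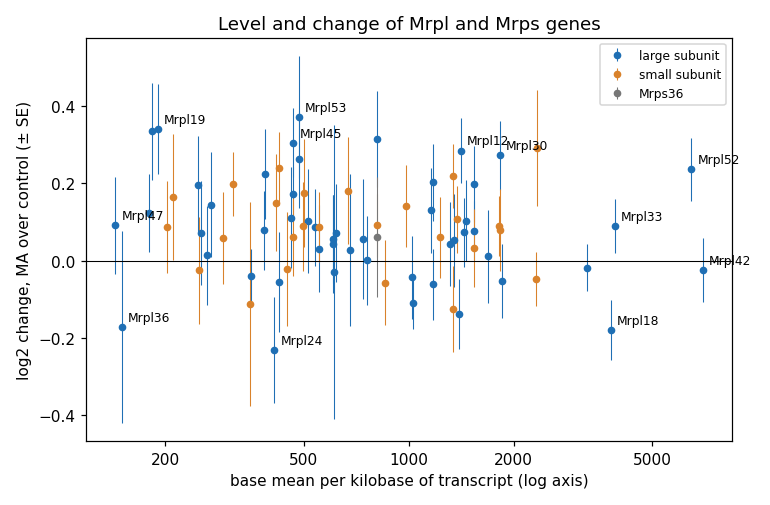
Base mean per kilobase of the longest coding transcript (x axis, log scale) and log2 change with its SE (y axis) for the 78 members, by subunit. The points spread around a change slightly above 0 over the whole range of levels, with rho of -0.13.

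The rest of the machinery was read from lists of genes that make, run or supply the mitochondrial ribosome. The counts of each list, here and in the next 3 paragraphs, stand beside 7.07% of all genes called higher and 8.27% called lower. The 5 subunits that carry other names, Dap3, Ptcd3, Aurkaip1, Chchd1 and Gadd45gip1, had 0 genes past the test and a median of 0.07. The 3 with the smallest p were Chchd1 (0.21, SE 0.11), Dap3 (-0.10, SE 0.07) and Aurkaip1 (-0.08, SE 0.08). Of 25 assembly factors tested, 1 rose and 0 fell, with a median of 0.13. It was C1qbp, a matrix protein that binds RNA, at 0.56 (SE 0.06, DESeq2 adjusted p = 3.9e-16), followed by the helicase Dhx30 (0.18, SE 0.07) and by Rcc1l (0.34, SE 0.16), which did not pass.

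Of 14 translation factors and partners, 3 rose and 0 fell. Lrpprc, which stabilises mitochondrial mRNAs, had a log2 change of 0.31 (SE 0.08, DESeq2 adjusted p = 0.00089). Guf1, the mitochondrial elongation factor 4, had one of 0.34 (SE 0.09), and Oxa1l, the insertase that receives nascent chains in the inner membrane, one of 0.30 (SE 0.09). The median of the list was 0.08. Of 13 genes for mitochondrial transcription and DNA upkeep, 0 passed in either direction, with 2 at an unadjusted p under 0.05 and a median of 0.10. The helicase Twnk (0.31, SE 0.14), the polymerase Polg (0.16, SE 0.08) and Trmt10c, a subunit of mitochondrial RNase P (0.15, SE 0.09), came first.

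Of 11 known regulators of nuclear genes for mitochondria, 1 rose and 0 fell. It was named after its value was seen: Ppargc1a, the coactivator PGC-1α, had a log2 change of 1.21 (SE 0.10, DESeq2 adjusted p = 2.55e-28). Nrf1 (-0.12, SE 0.13), Gabpa (0.03, SE 0.07) and Yy1 (0.04, SE 0.08), whose motifs were searched above, did not pass.

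2 further groups, chosen by name, gave larger medians than the members. The cytosolic list takes in paralogs such as Rpl7l1 and Rpl22l1. Of 83 tested genes for proteins of the cytosolic ribosome, 74 rose and 0 fell, with a median log2 change of 0.40 and a median SE of 0.07. Of 74 nuclear genes for subunits of oxidative phosphorylation, 20 rose and 2 fell, with a median of 0.15 and a median SE of 0.08. The upper quartile of the Mrpl and Mrps genes, 0.17, lay below the lower quartile of the cytosolic ribosomal genes, 0.33. These are side-by-side values from the same libraries, and the difference between the lists was not tested.

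**Figure D3:**
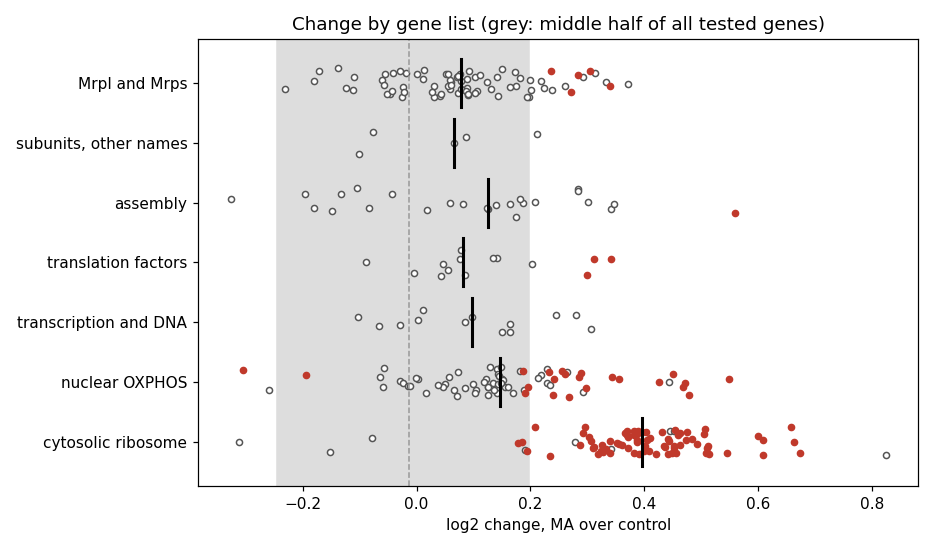
Log2 change, MA over control (x axis), of each tested gene of 7 lists (rows), with red points for an adjusted p under 0.05, black bars for list medians and the grey band for the middle 50% of all tested genes. The Mrpl and Mrps genes lie mostly within the band with a median of 0.08, and the cytosolic ribosomal genes lie mostly to its right with a median of 0.40.

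Some members start close to a gene on the opposite strand. A start of another protein-coding gene pointing away within 1000 bases was annotated for 18 of the 78 members (23.1%), beside 6.78% of 21924 protein-coding genes. Starts were taken as the outermost annotated ends of each gene, so pairs whose ends overlap were not counted. Mrpl46 (0.10, SE 0.13) and Mrps11 (-0.06, SE 0.11) are such a pair, with RefSeq upstream stretches at the same bases on opposite strands. The distance was 200 bases or less in 16 of the 18 pairs and 26 bases in the closest, Mrpl54 and Apba3. In 8 of the 18 pairs the 2 genes had estimates of the same sign, where 75.6% of all members and 48.2% of all tested genes had positive ones. Mrpl30, the 1 member with such a partner that passed, rose by 0.27, and its partner Mitd1, 66 bases away, had an estimate of -0.19 (SE 0.17). Mrpl49 (-0.06, SE 0.09) lies 59 bases from Fau, a gene for a cytosolic ribosomal protein, which rose by 0.39 (SE 0.05). Mrps18b (-0.11, SE 0.26) lies 45 bases from Ppp1r10, whose log2 change was -0.62 (SE 0.08, DESeq2 adjusted p = 2.23e-13). Helq and Apba3 also rose, and their partners Mrps18c and Mrpl54 did not pass. A pair that passed on both sides was not found (0 of 18). With 1 member past the test, at most 1 such pair was possible, so this count is not informative. Of the 18 partners 3 passed as higher and 1 as lower, beside 7.07% and 8.27% of all genes with an adjusted p.

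The promoter table matched 69 of the 78 members, with 75 windows of 300 bases (250 before and 50 after the start), of which Mrpl2, Mrpl48 and Mrps16 have more than 1. The NRF1 motif stood in 9.33% of the 75 windows and in 1.87% of all 32851 windows. For the ETS motif the shares were 16.0% and 3.89%, and for the YY1 motif 16.0% and 2.75%. At least 1 of these 3 was present in 38.7% of the windows of members and in 8.07% of all windows. SP1 (52.0% and 35.7%), E-box (9.33% and 7.15%) and NF-Y (40.0% and 37.4%) motifs differed less. The median log2 change was -0.04 for the 7 genes with an NRF1 motif and 0.08 for the 62 without, and -0.02 for the 12 genes with a YY1 motif and 0.08 for the 57 without. For the ETS motif the medians were 0.07 and 0.08. Of the 4 genes with a window that passed the expression test, Mrpl52 held an ETS motif, outside the stretch printed above. The others held none of the 6, and neither did some genes that did not pass, such as Mrpl24, Mrpl44 and Mrps2.

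**Figure D4:**
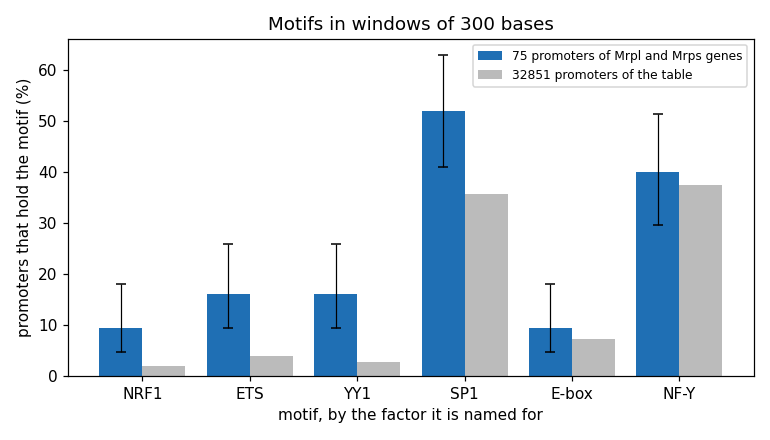
Percent of promoter windows that hold each of 6 motifs, for 75 windows of members (blue, with Wilson 95% intervals that cover counting error only) and for all windows of the table (grey). The NRF1, ETS and YY1 bars of the members are 9.33%, 16.0% and 16.0%, beside 1.87%, 3.89% and 2.75%.

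N6-methyladenosine (m6A) is a modified base of mRNA. A peak is a region the authors called as enriched in IP over input, which need not hold in each group. Of the tested members, 5 carried a peak (6.41%), beside 18.7% of all tested genes in the same range of base means. The Wilson 95% interval of the members' share, which covers counting error only, ran from 2.77% to 14.1%. Of the shares just given, 12.5% lies inside it and 18.7% outside. Without a limit on base mean, the share was 2.41% of 83 cytosolic ribosomal genes and 4.05% of 74 nuclear genes of oxidative phosphorylation. A share under 12.5% was thus not particular to the members. The exonic letters of the peaks that lie in coding sequence are printed next, 5′ to 3′ on the coding strand of GRCm38, because each is a stretch in which a peak was called. Capitals mark matches to the RRACH consensus of m6A sites. The peaks span chr15:55555438-55557301 (minus strand) for Mrpl13 in exons 1 and 2, chr19:11770842-11772898 (plus) for Mrpl16 in exons 2 and 3, chr6:81965850-81965899 (minus) for Mrpl19 in exon 1 and chr13:99405021-99409900 (plus) for Mrps27 in exons 7 and 8. For Mrpl13 the 33 coding bases are shown, and 17 bases of the 5′UTR are left out.
Mrpl13: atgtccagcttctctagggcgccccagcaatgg
Mrpl16: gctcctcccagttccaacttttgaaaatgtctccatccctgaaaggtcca
Mrpl19: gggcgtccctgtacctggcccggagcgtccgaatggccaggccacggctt
Mrps27: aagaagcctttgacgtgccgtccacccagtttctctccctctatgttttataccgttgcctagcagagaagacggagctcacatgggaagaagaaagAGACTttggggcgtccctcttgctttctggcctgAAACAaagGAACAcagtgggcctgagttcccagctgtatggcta

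The Mrps27 peak held 3 matches to RRACH in 175 bases, and the other 3 stretches held 0. The fifth peak, at chr7:105811001-105811075 (minus), covers 75 bases of the 5′UTR of Mrpl17, holds 0 matches to RRACH and is not printed. The peaks without a match are shorter than the RNA fragments the paper describes as immunoprecipitated, so a site may lie outside them. The share of all peaks without a match was not computed. A count of 0 therefore does not show that a peak lacks m6A.

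At a deposited adjusted p under 0.05, the ratio of IP to input rose after MA in 2 of the 5 peaks and fell in 0. Over all 2642 tested peaks the shares were 14.9% and 2.57%. The 2 peaks were those on Mrpl16 and Mrpl17. For the Mrpl16 peak, the reads were 171 in control input, 112 in control IP, 110 in MA input and 253 in MA IP. Its log2 ratio of IP to input went from -0.22 to 1.05, a deposited change of 1.14 (exomePeak2 adjusted p = 0.0038). Scaled to the reads in all peaks, the IP reads of this peak differed by a log2 ratio of 0.74 and the input reads by -0.21. Both peaks that rose were below an equal ratio of IP to input in control cells and above it after MA.

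For the Mrpl17 peak the reads were 85 in control input, 59 in control IP, 26 in MA input and 91 in MA IP, with a deposited change of 1.48 (exomePeak2 adjusted p = 0.013). Here the scaled input reads moved more than the IP reads, with log2 ratios of -1.28 and 0.19. The gene itself had an expression change of -0.04 (SE 0.07). Mrps27 had reads of 160, 132, 96 and 184 in the same order and a change of 0.53 that did not pass (exomePeak2 adjusted p = 0.20).

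The other peaks had no positive change. The Mrpl13 reads were 208, 200, 173 and 241 in that order, with a change of -0.01 (exomePeak2 adjusted p = 0.98). Mrpl19, the 1 member with a peak that also rose in expression, had 33, 51, 51 and 73 reads, the fewest of the 5, and a change of -0.36 (exomePeak2 adjusted p = 0.48). A ratio of its pooled reads, centred on the median of all peaks, was -1.02 with an adjusted p of 0.041, from a Wald test that leaves out the spread between replicates. The reads of each group are summed over 3 libraries, so their spread enters only through the deposited p. Over all peaks the median of the deposited change was 0.20, and a ratio of ratios of the pooled reads, without the deposited scaling, had a median of 0.91. A sixth peak names both Cuedc1 and Mrps23 and was not counted.

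**Figure D5:**
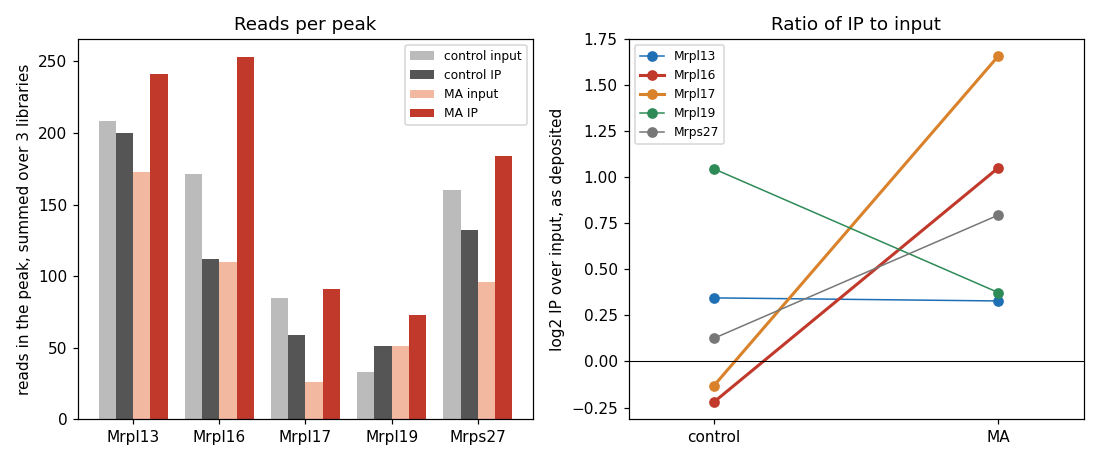
Left, reads in each of the 5 peaks summed over the 3 libraries of each group. Right, deposited log2 ratio of IP to input in control and MA, with thick lines for the 2 peaks with an adjusted p under 0.05, Mrpl16 (-0.22 to 1.05) and Mrpl17 (-0.13 to 1.66).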

How the data were processed

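For 12 libraries of HT22 cells (3 MA input, 3 MA IP, 3 control input and 3 control IP), polyadenylated RNA enriched from total RNA was sequenced by the authors with a stranded kit that marks molecules with identifiers. Per the labels, reads were aligned to mm10 with HISAT2, transcripts were quantified with StringTie and groups were compared with DESeq2. Versions are not given in the sources used here. The authors deposited a base mean for each gene, a signal that averages counts scaled by size factors. The log2 fold changes, their standard errors and the Wald score were deposited by the authors, as were the p-values. Peaks were compared by the authors with exomePeak2, and the read counts of each peak were deposited as sums over the replicates of a group, beside log2 ratios of IP to input. The columns of the authors' comparisons were used because the tables hold no single library, and 0 columns of single libraries were left out. The planned test on counts of single libraries could therefore not be made.

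Starting from these tables, the expression sign was reversed, and genes and peaks were called at the deposited adjusted p under 0.05 over the whole table. Intervals of 95% were taken from the deposited standard errors as normal ones, and intervals of shares (Wilson) cover counting error only. Transcripts came from GENCODE release M21 on GRCm38 (the longest coding sequence of each gene), and promoters from RefSeq. A stretch of 50 bases counted as shared if found exactly in a transcript of another gene. The tools were scipy 1.17.1, numpy 2.4.6, Python 3.11.15, pandas 2.3.3, pysam 0.24.0 and matplotlib 3.10.9. The adjustment of p-values, the centring and the ratio of ratios were first tested on simulated data, and the other computations were not.

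The members and lists were chosen with earlier results of these data known. Named are the 10 higher and 10 lower members with the smallest p, each member with a peak, the 3 highest and 3 lowest by level, Mrps36, Mrps30 and Mrps18a, and the 3 smallest p in 4 of the other lists. Alternatives were other thresholds, adjustments, centrings and member lists.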

Additional observations from a re-analysis of the deposited data

How the results depend on the processing

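Of 44 counts recomputed under other settings, 32 stayed within 1.5 times the first count. The median change of the members ran from 0.08 to 0.09 over 6 settings, 1 of which was a weighted mean. Centring moved every gene by the same small amount, so it was no strong check on the 30 single genes named, of which 0 changed sign. With an unadjusted p, 15 members were higher and 1 was lower. Centred on the median of all genes, which lies at -0.01, 1 gene of the small subunit (Mrps23) and 2 assembly factors passed as higher. With an unadjusted p and more than 1.2-fold, the counts of higher genes were 5 with a bacterial counterpart, 2 assembly factors, 1 for transcription and DNA, 2 regulators and 13 of oxidative phosphorylation, of which 1 more was lower. For peaks, 1 rose at an adjusted p under 0.01. From pooled reads centred on all peaks, which ignores the spread between replicates, 1 peak (Mrpl19) was lower. From 100 bases before to 50 after the start, the shares of member windows with SP1, E-box and NF-Y motifs were 38.7%, 2.67% and 29.3%.

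No paired analysis was possible because the tables hold no values of single libraries, and leaving out each replicate was not run for the same reason. With no single libraries, depth, outlying libraries and batches could not be examined, and each error is the deposited one.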
